A study of Mus musculus with 6 samples.

Results

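Genes for secreted and apical products of epithelium, namely Ovgp1, Enpp3, Ang, Agr2 and Spink12, were followed in the mouse uterus at 3.5 days post coitum. They were read by 11 of the 1382 probe sets of the deposited table, and stand for 5 of its 987 genes with a symbol of their own. The members were every probe set annotated to these symbols, and the genes had been selected on their intensity difference between the groups compared here. What follows is therefore a description, with no test of that difference.

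RNA came from whole uteri of female mice, 3 arrays of Stat3 f/f, in which both Stat3 alleles carry loxP sites and are intact, and 3 of Stat3 d/d, in which they are deleted. Both groups were mated females at the same day, and neither received a treatment that the labels name. The sources used here do not give the Cre driver, the cells in which Stat3 was deleted, the strain and age of the mice, or whether separate animals were used for the arrays. The spread between arrays may therefore be technical.

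In the uterus and oviduct, the epithelium that faces the lumen secretes glycoproteins, enzymes and protease inhibitors into the fluid that bathes the gametes and the early embryo, and it carries other enzymes on its apical membrane. Much of this output follows oestrogen and progesterone, and changes as the uterus becomes receptive to the embryo. Ovgp1 encodes oviductin, a mucin-like glycoprotein of the chitinase family that coats the egg in the oviduct. Enpp3 encodes a membrane enzyme that splits extracellular nucleotides and is also carried by basophils and mast cells. Ang encodes angiogenin, a secreted ribonuclease. Agr2 encodes a protein of the disulfide isomerase family in the endoplasmic reticulum that mucus-secreting cells need, and Spink12 a secreted protease inhibitor of the Kazal type.

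The sequence just before the start of Ovgp1 and of Ang is shown because these genes had the largest differences of the 5, and because the annotation ties Ang to a neighbour there. Both are the 250 bases upstream of the start, 5′ to 3′ on the gene's strand, from RefSeq on GRCm38.p6, and capitals mark the hexamer AGGTCA that nuclear receptors recognise. The Ovgp1 stretch is chr3:105973552-105973801 on the + strand and the Ang stretch chr14:51090827-51091076 on the + strand.
Ovgp1: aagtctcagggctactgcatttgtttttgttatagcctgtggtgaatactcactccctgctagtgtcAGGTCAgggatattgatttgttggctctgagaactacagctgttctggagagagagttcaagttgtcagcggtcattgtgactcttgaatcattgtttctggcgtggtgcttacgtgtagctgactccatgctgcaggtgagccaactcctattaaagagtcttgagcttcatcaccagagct
Ang: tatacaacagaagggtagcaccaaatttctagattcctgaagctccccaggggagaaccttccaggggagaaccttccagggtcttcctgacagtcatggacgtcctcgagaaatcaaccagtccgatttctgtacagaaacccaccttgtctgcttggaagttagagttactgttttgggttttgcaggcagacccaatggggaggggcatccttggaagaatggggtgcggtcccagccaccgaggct

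A window was found for 4 of the 5 genes, Ovgp1, Ang, Enpp3 and Agr2. AGGTCA or its reverse TGACCT was in 1 of the 4, Ovgp1, from base -183 to base -178 relative to the start, and in 14.02% of all 32851 windows of this length. The palindrome TTCNNNGAA that STAT factors recognise was in 0 of the 4 and in 7.02% of all windows. The palindrome reads the same on both strands, and neither motif can lie inside the other. A match, or its absence, describes these letters in this window only. The Ang window is also that of Rnase4, another secreted ribonuclease, and both genes start at the same base and overlap in the annotation. Of all windows, 68 (0.207%) were shared with another gene in this way. Rnase4 had no probe set in the table, so only Ang was followed.

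The deposited table holds a selection made on this same contrast, which sets how every value can be read. The group means of all 1382 probe sets differed by 1.5 times or more, and 0 probe sets had overlapping groups. In limma, with Benjamini-Hochberg adjustment over the table, 100% of probe sets passed an adjusted p of 0.05, 67.4% higher and 32.6% lower in Stat3 d/d. That all 11 member probe sets passed is given by this background and by the choice of genes. Array medians were 23.7 to 26.0 in Stat3 f/f and 34.2 to 35.7 in Stat3 d/d, and the median log2 change of the table was 0.70. Stat3 itself was lower on every Stat3 d/d array, at 41.0% and 42.6% of the Stat3 f/f mean by its 2 probe sets. Where these lie relative to the deleted part is not known here, so they check the labels only in part.

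By gene, 3 of the 5 were higher in Stat3 d/d (Ovgp1, Enpp3 and Ang) and 2 were lower (Agr2 and Spink12), where 66.9% of all 987 genes were higher and 33.1% lower. Each gene with several probe sets was represented by the brightest, which sets the direction of its gene. The other probe sets of Enpp3, Ang and Agr2 had the direction of the brightest, within a table selected on this contrast. Ranked by the change of log2(intensity + 1), Ang was the first, Ovgp1 the third and Enpp3 number 13 of the 660 genes that were higher. Spink12 was number 8 and Agr2 number 27 of the 327 that were lower. In whole tissue, more or fewer cells of a type and more or less RNA per cell cannot be told apart.

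**Figure D1:**
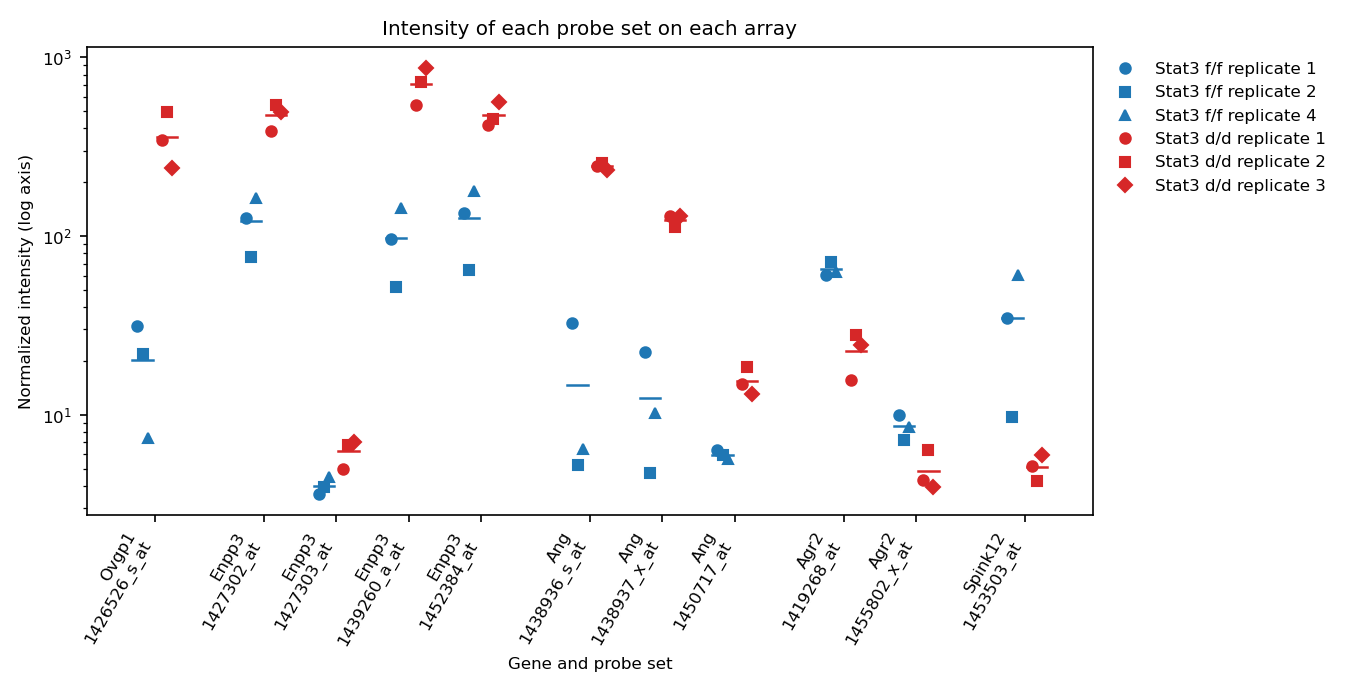
Normalized intensity (log axis) of the 11 probe sets of Ovgp1, Enpp3, Ang, Agr2 and Spink12 on 3 Stat3 f/f (blue) and 3 Stat3 d/d (red) arrays. Each symbol is 1 array, its shape gives the replicate number, and the short lines are group means. The groups overlap for 0 of the 11 probe sets, as for 0 of all 1382 probe sets of the selected table.

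Among the secreted glycoproteins, Ovgp1 was read by a single probe set, 1426526_s_at. Its intensity was 31.3, 21.8 and 7.42 on Stat3 f/f replicates 1, 2 and 4, and 344, 494 and 239.7 on Stat3 d/d replicates 1, 2 and 3. Every Stat3 d/d array was thus far above every Stat3 f/f array, and the lowest Stat3 d/d value was 7.66 times the highest Stat3 f/f value. The group means were 20.2 ± 12.02 and 359 ± 128 (SD, n = 3), a ratio of 17.8, and the log2 change, taken as log2(intensity + 1) throughout, was 4.23 (SE 0.43). With a pseudocount of 16 it was 3.38. Ovgp1 was uneven within both groups: the highest array was 4.22 times the lowest in Stat3 f/f and 2.06 times in Stat3 d/d. Its log2 SD among Stat3 f/f arrays, 1.01, was above that of 99.0% of the probe sets of the table. The suffix _s_at is given by Affymetrix to probe sets whose probes can also match transcripts of other genes, so part of this signal can come from a relative of Ovgp1.

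Of 23 mucins and apical glycoproteins listed, 2 had a probe set in the table, and Tspan1, an epithelial tetraspanin, was the other one. It read 68.0, 57.0 and 92.0 in Stat3 f/f against 44.2, 41.9 and 39.9 in Stat3 d/d, a log2 change of -0.74 (SE 0.20). Tspan1 was lower where Ovgp1 was higher, so the listed pair did not share a direction. Muc1, Muc4 and the other listed mucins were not in the table and were not analysed here.

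Enpp3, the apical nucleotide pyrophosphatase, was read by 4 probe sets, and 3 of them were bright. Probe set 1439260_a_at, the brightest, read 96.1, 52.1 and 143 on Stat3 f/f replicates 1, 2 and 4, and 544, 726 and 867 on Stat3 d/d replicates 1, 2 and 3. The means were 97.0 ± 45.3 and 713 ± 162 (SD, n = 3), a ratio of 7.35, with a log2 change of 2.95 (SE 0.32). The suffix _a_at marks probe sets that read alternative transcripts of the same gene.

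The other bright Enpp3 probe sets had a smaller difference. Probe set 1427302_at read 127, 76.4 and 163 in Stat3 f/f and 388, 537 and 493 in Stat3 d/d, a log2 change of 1.999 (SE 0.26). Probe set 1452384_at read 135, 64.6 and 179 in Stat3 f/f and 417, 452 and 559 in Stat3 d/d, a log2 change of 2.01 (SE 0.32). All 3 bright probe sets placed the Stat3 f/f arrays in the same order, with replicate 2 lowest and replicate 4 highest, and all 3 were lowest on replicate 1 in Stat3 d/d.

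The fourth Enpp3 probe set, 1427303_at, was near the bottom of the table. It read 3.62, 3.93 and 4.46 in Stat3 f/f and 4.99, 6.75 and 7.07 in Stat3 d/d, where the lowest value of any probe set was 2.47. Its log2 change was 0.53 (SE 0.18), and 0.06 after each array was centred on its median. Its Stat3 d/d mean, 6.27, was above only 9.90% of all values in the table, and the table gives no detection call that would say whether it exceeds background. Averaged over its 4 probe sets Enpp3 changed by 1.87.

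Of 21 listed enzymes, receptors and carriers for extracellular nucleotides, 2 were in the table and both were higher. Enpp5, of the same family as Enpp3, read 20.2, 20.4 and 30.0 in Stat3 f/f and 50.1, 39.2 and 47.5 in Stat3 d/d, a log2 change of 0.94 (SE 0.20). Enpp1, which lies next to Enpp3 on chromosome 10, had no probe set in the table. Markers of mast cells and basophils, which also carry Enpp3, were represented by 0 of 8 genes. Of 6 leukocyte markers, 3 were in the table and all 3 were higher (Ptprc, Adgre1 and Klrd1). Their summed intensity was 132 to 229 in Stat3 f/f and 425 to 676 in Stat3 d/d. The part of leukocytes in the Enpp3 values was not tested.

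**Figure D2:**
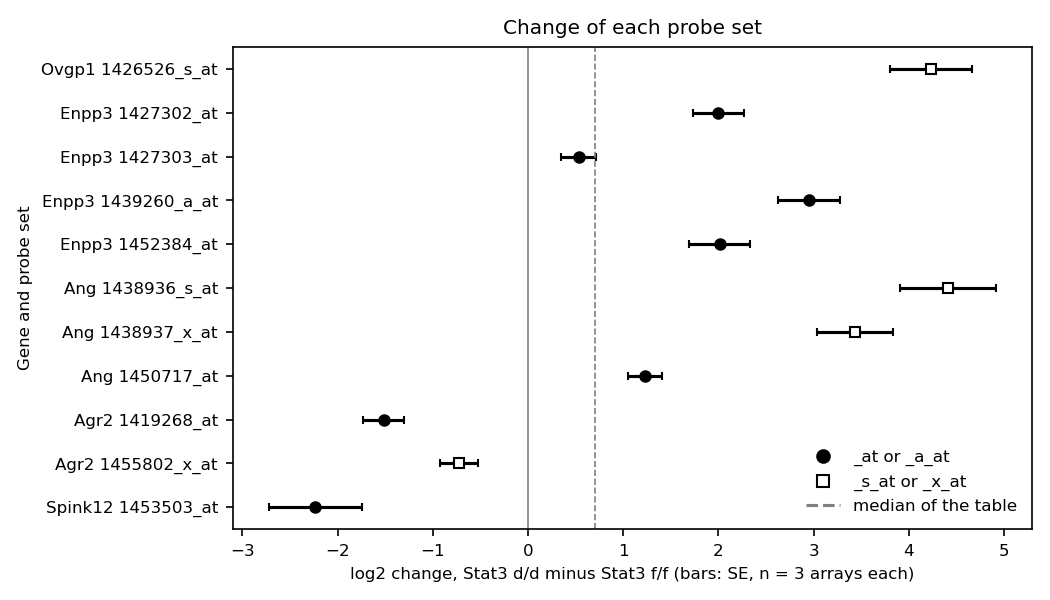
Log2 change of each of the 11 probe sets, Stat3 d/d minus Stat3 f/f, with bars for the SE (n = 3 arrays in each group); open squares are probe sets with the suffix _s_at or _x_at and the dashed line is the median of the table, 0.70. Probe sets of Ang range from 1.23 to 4.41 and those of Enpp3 from 0.53 to 2.95.

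Ang, the secreted ribonuclease, was read by 3 probe sets whose differences were of unequal size. Probe set 1438936_s_at read 32.5, 5.23 and 6.46 on Stat3 f/f replicates 1, 2 and 4, and 246, 256 and 235 on Stat3 d/d replicates 1, 2 and 3. Stat3 f/f replicate 1 stood above the other Stat3 f/f arrays, while the Stat3 d/d arrays lay within 1.09-fold of each other. The means were 14.7 ± 15.4 and 246 ± 10.8 (SD, n = 3), a ratio of 16.7, and the log2 change was 4.41 (SE 0.50). Without Stat3 f/f replicate 1 it was 5.18, without replicate 2 it was 3.96, and with a pseudocount of 16 it was 3.20. The lower Stat3 f/f values lie near the lowest of the table, 2.47, and the size of the ratio is uncertain to that extent.

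Probe set 1438937_x_at showed the same arrangement at lower intensity. It read 22.4, 4.71 and 10.3 in Stat3 f/f and 129, 112 and 129 in Stat3 d/d, a log2 change of 3.44 (SE 0.40). Stat3 f/f replicate 1 was again the highest of its group, and replicate 2 again the lowest. The suffix _x_at marks probe sets with probes that can bind unrelated transcripts.

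Probe set 1450717_at, which carries no such suffix, was dim. It read 6.34, 5.97 and 5.65 in Stat3 f/f and 14.9, 18.6 and 13.1 in Stat3 d/d, a ratio of 2.59 and a log2 change of 1.23 (SE 0.18). On this probe set Stat3 f/f replicate 1 was only 1.12 times the lowest array of its group, against 6.22 times on 1438936_s_at. The rank of Ang as the first gene, on the log2(intensity + 1) scale, thus rests on a probe set open to cross-hybridisation, and the probe set without that suffix had the same direction with a smaller size. By the ratio of means and with a pseudocount of 16, Ang was below Ovgp1. No probe sequence was used here, so the specificity of any of these probe sets was not tested. The mean over the 3 probe sets was 3.03. Of the 22 listed members of the ribonuclease A family and its inhibitor, Ang alone was in the table, so its close relatives, such as Ang2 and Ang4, were not analysed here.

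Agr2, the disulfide isomerase of mucus-secreting cells, was lower by both of its probe sets. Probe set 1419268_at read 60.7, 72.0 and 62.8 on Stat3 f/f replicates 1, 2 and 4, and 15.6, 27.8 and 24.6 on Stat3 d/d replicates 1, 2 and 3. The lowest Stat3 f/f value was 2.19 times the highest Stat3 d/d value. The means were 65.2 ± 5.997 and 22.7 ± 6.32 (SD, n = 3), so the Stat3 d/d mean was 34.8% of the Stat3 f/f mean, and the log2 change was -1.52 (SE 0.22). By the brightest probe set of each of the 5 genes, Agr2 had the most even Stat3 f/f arrays. Their log2 SD was 0.13, against a median of 0.22 over the table. Among the dim probe sets it was 0.07 for 1450717_at of Ang, 0.12 for 1427303_at of Enpp3 and 0.21 for 1455802_x_at of Agr2.

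The second Agr2 probe set, 1455802_x_at, was dim and read 10.03, 7.26 and 8.52 in Stat3 f/f and 4.31, 6.31 and 3.92 in Stat3 d/d. Its groups came within 1.15-fold of each other, and its log2 change was -0.73 (SE 0.20). Agr2 was the only one of 32 listed genes of protein folding and export in secretory cells with a probe set in the table. Agr3, its neighbour on chromosome 12 and closest relative, and the secretory regulators Xbp1 and Spdef were not among them.

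Spink12, the Kazal-type inhibitor, was read by probe set 1453503_at. Its intensity was 34.6, 9.74 and 60.3 on Stat3 f/f replicates 1, 2 and 4, and 5.15, 4.28 and 5.94 on Stat3 d/d replicates 1, 2 and 3. The Stat3 d/d mean was above only 5.97% of all values in the table, and Stat3 f/f replicate 2 was 1.64 times the highest Stat3 d/d array. The means were 34.9 ± 25.3 and 5.12 ± 0.83 (SD, n = 3), a ratio of 6.80, and the log2 change was -2.23 (SE 0.49). Without Stat3 f/f replicate 2 it was -2.94, without replicate 4 it was -1.68, and with a pseudocount of 16 it was -1.13. Whether the Stat3 d/d values exceed background is not known, so the ratio and the rank of Spink12 are not exact sizes. The Stat3 f/f arrays spread 6.19-fold, and their log2 SD, 1.29, was above that of 99.7% of probe sets.

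Of 33 listed protease inhibitors of the Kazal, WAP and serpin families, 3 were in the table, and the others besides Spink12 went in opposite directions. Serpina3n, an acute-phase serpin, was lower, at 90.3, 116 and 18.7 in Stat3 f/f and 10.02, 9.11 and 9.70 in Stat3 d/d (log2 change -2.49, SE 0.52). Serpinb9, an inhibitor of granzyme B, was higher, at 14.8, 13.8 and 11.1 against 17.7, 24.0 and 20.9 (0.62, SE 0.18). Serpina3n was lowest on Stat3 f/f replicate 4, the array on which Spink12 was highest. The Spink genes next to Spink12 (Spink5, Spink6 and Spink14) had no probe set in the table.

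Within a group, the 5 genes, each read by its brightest probe set, did not share an order of arrays. In Stat3 f/f, Spink12 and Enpp3 had the same order of arrays although they differed between groups in opposite directions. Relative to the Stat3 f/f mean, replicate 2 was at -1.41 for Spink12 and -0.77 for Enpp3 on the log2 scale, and replicate 4 at 1.10 and 0.67. Ovgp1 had another order, with replicate 4 lowest at -1.13 and replicate 1 highest at 0.81. Ang was also highest on replicate 1, at 1.53, with both other arrays below the mean. In Stat3 d/d, Ovgp1 departed most, at 0.52 on replicate 2 and -0.52 on replicate 3, followed by Agr2, at -0.47 on replicate 1. Ang stayed within 0.06 of its mean on these arrays by 1438936_s_at. By 1450717_at it was at 0.26 on replicate 2 and -0.22 on replicate 3.

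**Figure D3:**
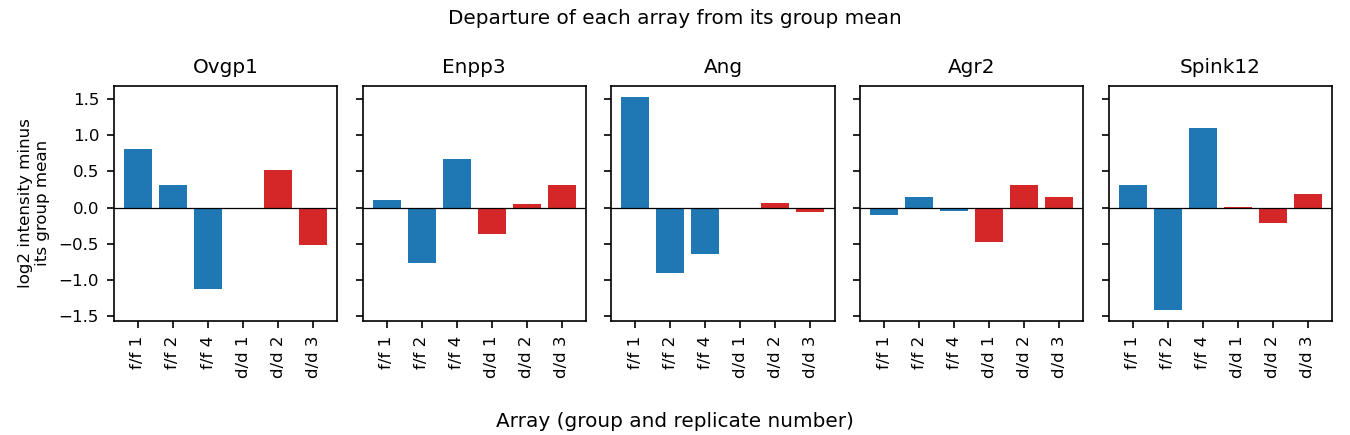
Log2 intensity of the brightest probe set of each gene on each array minus the mean of that array's group (Stat3 f/f in blue, Stat3 d/d in red). Enpp3 and Spink12 share the order of the Stat3 f/f arrays, with replicate 2 at -0.77 and -1.41, while Ovgp1 is lowest on replicate 4, at -1.13.

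The genes of the table most like each member were sought by Pearson's r over the 6 arrays on the log2 scale. This measure mainly reads the group difference that every probe set of the table has, and between 28 and 154 of 986 genes exceeded 0.95 for each member. Nearest to Ovgp1 were Lars2 (r = 0.996), a mitochondrial leucyl-tRNA synthetase, Klre1 (0.995), a receptor of natural killer cells, and Dmrta1 (0.993), a DNA-binding protein. Nearest to Enpp3 were 4833420G17Rik (0.998), the histone gene H2bc21 (0.996) and Naip2 (0.995), a sensor of bacterial proteins. Nearest to Ang were Smim10l1 (0.997), the monooxygenase gene Fmo2 (0.995) and Zfp869 (0.995).

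The lower genes had fewer near neighbours. Nearest to Agr2 were Ankrd11 (r = 0.987), a chromatin regulator, and the retinol-binding protein gene Rbp7 (0.985). Nearest to Spink12 were the gap junction gene Gjb2 (0.989), the glycolytic enzyme gene Aldoc (0.985) and the cadherin gene Cdh4 (0.984). Gjb2 read 61.01, 23.9 and 111 on Stat3 f/f replicates 1, 2 and 4 and 15.6, 15.0 and 13.1 in Stat3 d/d. It shared with Spink12 the low replicate 2 and the high replicate 4 of Stat3 f/f, but not the order of the Stat3 d/d arrays.

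Of 31 other products that the uterine epithelium or its glands secrete, 6 were in the table, 3 higher and 3 lower. Their log2 changes ran from -3.33 (Lcn2) to 2.23 (Ttr). Prap1, a secreted protein of the epithelium, read 9.78, 6.57 and 14.5 in Stat3 f/f and 60.6, 102 and 17.7 in Stat3 d/d. Its Stat3 d/d arrays had the order of Ovgp1, with replicate 2 highest and replicate 3 lowest, but its Stat3 f/f arrays did not. The iron-binding lipocalin Lcn2 read 181, 98.8 and 212 in Stat3 f/f and 21.1, 12.2 and 12.1 in Stat3 d/d. Its Stat3 f/f arrays had the order of Spink12, but its Stat3 d/d arrays did not. Transthyretin, Ttr, read 17.8, 20.2 and 5.22 in Stat3 f/f and 73.8, 62.2 and 53.1 in Stat3 d/d by its brightest probe set. By this probe set Ttr was lowest on Stat3 f/f replicate 4, as Ovgp1 was, but had another order of arrays in both groups. Orders of so few arrays often coincide, and no link between these genes was tested. Lyz1, a lysozyme gene, was higher, with a log2 change of 1.16 (SE 0.29) on its brighter probe set. The probe sets that stand for Prap1, Ttr and Lyz1 carry the suffix _s_at or _x_at. Both directions thus occurred among secreted products, as they did among the 5 genes.

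Markers of the cells that could supply these transcripts were mostly outside the table. Of 10 epithelial markers, Cldn3 and Cldn4 were present and higher, with a summed intensity of 516 to 815 in Stat3 f/f and 1028 to 1209 in Stat3 d/d. These sums were mostly Cldn3. The log2 changes of Cldn3 and Cldn4, 0.74 (SE 0.21) and 0.68 (SE 0.17), were near the median of the table, 0.70. Of 8 uterine gland markers, Ttr was higher and Aldh1a1 lower, with sums of 126 to 438 and 96.7 to 126. In Stat3 f/f these sums were mostly Aldh1a1, which read 114, 106 and 432 on replicates 1, 2 and 4. Of 8 stromal markers, Dcn was present and lower (log2 change -1.06, SE 0.22), and of 4 mesothelial markers, Upk3b was present and higher (0.74, SE 0.21). Of 5 smooth muscle markers, 0 were in the table. Of 8 markers of ciliated and oviduct epithelium and 8 of the ovary, 0 were in the table. The oviduct is the best known source of Ovgp1, and whether any oviduct was carried along with the uterus was not tested. The part of the share of epithelium in the values of the 5 genes was not tested.

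Along the chromosomes, 1 of the 30 protein-coding genes nearest to the 5 members, 3 on each side, had a probe set in the table. This was Moxd1, a monooxygenase-like gene near Enpp3 on chromosome 10, with a log2 change of -1.05 where Enpp3 had 2.95. The other 29 were not analysed here.

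**Figure D4:**
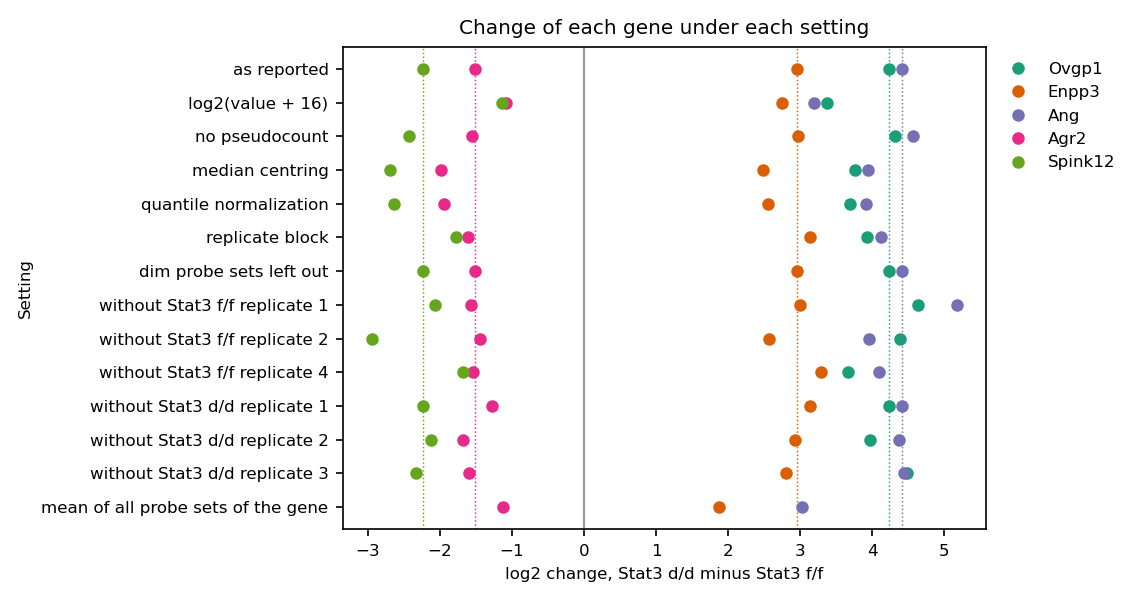
Log2 change of Ovgp1, Enpp3, Ang, Agr2 and Spink12 (Stat3 d/d minus Stat3 f/f) as reported and under each other setting of the processing, with dotted lines at the reported values. No gene crosses 0, which for most settings was fixed beforehand because the groups do not overlap. Ang ranges from 3.03 to 5.18 and Spink12 from -2.94 to -1.13.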

How the data were processed

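The 6 arrays were grouped by the source names in the labels, with replicate numbers from the titles. The labels' protocols describe biotinylated cRNA on Affymetrix arrays. The authors deposited an intensity for each probe set, and the values themselves show a linear scale. RMA is named in the submitters' processing notes, with no version; neither the return to a linear scale nor the selection of probe sets is recorded in any source used here. Genes come from the platform annotation, and the 5 genes matched RefSeq (GRCm38.p6), which also gave gene order and promoter sequence.

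The fit used log2(intensity + 1) and limma 3.58.1 (lmFit, then eBayes, without covariates; R 4.3.3) on all 1382 probe sets, and was tested on simulated data. A positive change means higher in Stat3 d/d; the pseudocount understates the changes of dim probe sets. The brightest probe set, by its mean over the 6 arrays, stands for a gene with several. The members and gene lists were chosen with earlier results of these data known. Named genes are the members, Stat3, list and marker genes in the table (at most 4 a list, by size of change), the 3 most alike genes by r (1 is not reported here), and chromosomal neighbours; genes named as outside the table are examples. Alternatives were other pseudocounts, median centring, quantile normalization, a filter on probe sets with a mean under 16, leaving out each array, a replicate block, and averaging a gene's probe sets. Arrays give no depth, and their number limits the precision. Figures were drawn with matplotlib 3.10.9.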

Additional observations from a re-analysis of the deposited data

How the results depend on the processing

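Over 63 recomputed changes of the 5 genes, 0 changed direction, 54 moved by less than 1 SD between arrays and 9 by more. Most of these outcomes were fixed beforehand. Leaving out 1 array cannot move a change by 1 SD, nor reverse it where the groups do not overlap. The filter on dim probe sets left the 5 changes as they were. The counts are therefore no measure of stability. With a pseudocount of 16, which compresses low values, Ovgp1 was 3.38, Ang 3.20, Agr2 -1.08 and Spink12 -1.13. Averaged over all probe sets of the gene, Enpp3 was 1.87, Ang 3.03 and Agr2 -1.12. Median centring and quantile normalization put Agr2 at -1.98 and -1.94. They lowered the median change of the table from 0.70 to 0.24 and 0.25 and the number of probe sets called from 1382 to 873 (422 higher, 451 lower) and 887 (436 higher, 451 lower). A selection of this kind does not show which scaling to prefer. Leaving out each array gave 3.67 to 4.64 for Ovgp1, 2.57 to 3.29 for Enpp3, 3.96 to 5.18 for Ang, -1.68 to -1.28 for Agr2 and -2.94 to -1.68 for Spink12, and 1347 to 1377 calls. Replicate numbers 1 and 2 occur in both groups, and arrays with the same number deviated together little (r = 0.088 and 0.028 over 1382 probe sets). The labels do not say whether the numbers pair animals. Replicates 3 and 4 each occur in 1 group, so a replicate block takes the change from replicates 1 and 2 alone. With the replicate block Ovgp1 was 3.93, Enpp3 3.13, Ang 4.12, Agr2 -1.62 and Spink12 -1.78, with 1284 calls. The values near the lowest of the table, such as those of Spink12 in Stat3 d/d, come with no detection call, so whether they exceed background is not known.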
